A study of Mus musculus with 30 samples.

Results

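The 46 genes described here are a set of mouse genes whose products drive or carry out mitosis, followed as transcripts in bone marrow derived macrophages. They were taken as the rows of the deposited gene count table whose symbol was on a fixed list of names. All 46 were found among the 30538 genes of the table, and all 46 were among the 13173 genes that had enough counts to be tested. The study set ligands of the oxysterol-binding protein OSBP (25-hydroxycholesterol, itraconazole and OSW-1) beside no compound, with and without lipopolysaccharide (LPS), and macrophages that lack Ch25h beside wild-type macrophages. Ch25h encodes the enzyme that makes 25-hydroxycholesterol (25HC) from cholesterol. The data are polyA RNA-seq of 30 libraries, in 10 groups of 3.

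With LPS there were 5 groups, each harvested after 18 h with 10 ng/mL LPS. These were C57BL/6 (wild-type) macrophages pretreated for 18 h with 0.3 µM OSW-1, with 1 µM itraconazole or with 5 µM 25HC, untreated Ch25h-/- macrophages and untreated wild-type macrophages. The same 5 kinds of cells were also harvested without LPS and are called resting here. The labels give the resting cells a stimulation time of 0 h, so LPS and the 18 h of further culture cannot be told apart. Untreated cells are listed with 0 h of pretreatment, so a compound and any further 18 h of culture cannot be told apart either. No vehicle is named for the untreated cells, and the labels do not say whether a compound stayed on the cells during LPS. The labels number the mice 1 to 3 within a genotype, so the 3 libraries of a group came from 3 animals, and groups of 1 genotype share them. In bulk RNA, fewer dividing cells and less RNA per dividing cell cannot be told apart.

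Mitosis begins when cyclin B bound to the kinase Cdk1 becomes active, and it ends after the anaphase-promoting complex has marked cyclin B and securin for destruction. Most transcripts of the machinery are made late in the cell cycle, in G2, and are nearly absent from cells that have left the cycle, and for this reason they are used as markers of proliferation. Macrophages grown from bone marrow divide under the growth factor M-CSF, and LPS is known to stop that division.

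The libraries held 23.7 to 43.9 times 1000000 counts. Every count was even in 20 of the 30 libraries, and statements about reads count 2 counts as 1 read in those libraries. The other 10 were all 6 Ch25h-/- libraries, all OSW-1 libraries with LPS and 25HC mouse 3 at rest. They held 23.7 to 29.6 times 1000000 counts, against 30.6 to 43.9 in the all-even ones. The labels do not say why. This difference cannot be told apart from genotype, nor from OSW-1 with LPS in its comparisons with other groups. The 8 macrophage markers summed to between 9881 and 36148 CPM (counts in each 1000000, on TMM-scaled library sizes) in every library. Markers of 7 other cell types summed to at most 25.0 CPM per list in any library. Ch25h had 0 to 0.277 CPM in the 6 Ch25h-/- libraries, against 0.599 to 29.1 CPM in the 24 wild-type libraries. A gene was called when edgeR's quasi-likelihood test gave a Benjamini-Hochberg adjusted p under 0.05 over all 13173 genes.

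Promoters of the members shared short sequences that the choice of genes did not use. RefSeq promoters (250 bases before to 50 bases after the start, assembly GRCm38.p6) were matched for 38 of the 46 members. Ccna2, Spc24, Kif20a, Tpx2, Ska1, Incenp, Aurkb and Pbk had no entry. Both strands were searched for CCAAT, the box bound by the factor NF-Y, and for the cell cycle homology region (CHR) in the forms TTTGAA, or TTCGAA, or TTTAAA, or CTTGAA, known as the element bound by the DREAM and MuvB complexes. A CHR form was found in 35 of the 38 member promoters (92.1%), against 40.8% of the promoters of all 27025 genes. It lay within 50 bases of the start in 31 member promoters (81.6%), against 13.8% of all promoters. CCAAT was found in 27 member promoters (71.1%), against 41.1% of all. Both were present together in 27 member promoters (71.1%), against 16.5% of all. E2F-like letters (TTTCCCGC, TTTGGCGC or TTTCGCGC) were found in 2 member promoters (5.26%), against 2.12% of all. In the list of DNA replication genes, 10 of 22 promoters held the E2F-like letters (45.5%) and 3 held a CHR form near the start (13.6%). Of 7 condensin promoters 6 held a CHR form (85.7%), in 5 of them near the start (71.4%), and of 25 promoters of other kinetochore genes 18 held CCAAT (72.0%) and 10 a CHR form near the start (40.0%). CCAAT was absent from the windows of 11 members, and 10 of these 11 fell with LPS in untreated wild-type cells. As 45 of the 46 members fell there, nothing about CCAAT can be read from that count. The 11 include Mad2l1, Pttg1 and Kif2c, whose windows are set aside below. The matches describe letters and show no binding. For 5 members (Mad2l1, Pttg1, Cdca8, Kif2c and Kif4) the GENCODE vM21 gene start lay outside the RefSeq window, so nothing is read from those windows about the promoter at that start. Of the other 33, 31 held a CHR form and 25 held CCAAT.

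Promoters of 3 members named below are printed, with CCAAT and CHR matches on either strand in capitals. Ccnb2 (cyclin B2, chr9:70421505-70421804, minus strand) held 3 CCAAT boxes and 2 TTTGAA, of which 1 lay at position 5 counted from the start. Cenpa (the centromeric histone, chr5:30666636-30666935, plus strand) held 2 CCAAT boxes on the opposite strand and 3 CHR forms. The GENCODE vM21 start of Cenpa lay 109 bases before the RefSeq start. The 2 boxes began 109 and 86 bases before the RefSeq start, so at or after the GENCODE one. Plk1 (polo-like kinase 1, chr7:122159185-122159484, plus strand) held 1 CCAAT box and 3 CHR forms.
Ccnb2: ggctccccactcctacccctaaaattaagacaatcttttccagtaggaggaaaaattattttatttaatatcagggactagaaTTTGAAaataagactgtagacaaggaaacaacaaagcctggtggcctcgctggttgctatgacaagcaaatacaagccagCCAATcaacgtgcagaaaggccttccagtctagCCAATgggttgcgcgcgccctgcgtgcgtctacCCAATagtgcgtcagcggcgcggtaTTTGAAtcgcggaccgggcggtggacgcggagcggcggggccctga
Cenpa: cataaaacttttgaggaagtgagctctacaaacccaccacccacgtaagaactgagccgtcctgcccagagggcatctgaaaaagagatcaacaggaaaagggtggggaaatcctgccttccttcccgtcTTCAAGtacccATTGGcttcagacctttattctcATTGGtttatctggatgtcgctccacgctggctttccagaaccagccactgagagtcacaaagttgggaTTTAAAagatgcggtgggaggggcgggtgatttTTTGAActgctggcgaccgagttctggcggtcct
Plk1: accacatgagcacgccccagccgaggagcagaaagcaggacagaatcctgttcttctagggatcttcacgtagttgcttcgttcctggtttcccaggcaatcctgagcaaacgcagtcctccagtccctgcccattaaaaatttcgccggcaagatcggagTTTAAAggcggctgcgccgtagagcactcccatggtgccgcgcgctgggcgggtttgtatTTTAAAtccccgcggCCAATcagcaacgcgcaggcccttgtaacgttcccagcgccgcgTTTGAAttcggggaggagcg

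LPS was accompanied by a near-complete loss of mitosis transcripts in all 5 kinds of cells. In untreated wild-type cells 45 of the 46 genes fell and 1 rose (Pttg1). Over all tested genes, 30.1% fell and 30.8% rose. The same 45 genes fell and Pttg1 rose in OSW-1-pretreated cells (36.6% of all genes fell, 34.8% rose), itraconazole-pretreated cells (33.6% and 33.4%), 25HC-pretreated cells (33.3% and 30.6%) and Ch25h-/- cells (29.2% and 28%). The median log2 fold change of the members was -6.26 after OSW-1, -6.01 after itraconazole, -5.42 after 25HC, -5.18 in Ch25h-/- cells and -5.03 in untreated wild-type cells. The median over all tested genes was -0.01 in untreated wild-type cells. For 45 of the 46 genes, all 15 LPS libraries lay below all 15 resting libraries. The share of all genes set apart in this way is not given here. Leaving out any 1 library changed none of the counts of members called lower or higher. With plain library totals in place of TMM sizes, 2277 of all genes rose and 6533 fell in untreated wild-type cells, against 4056 and 3968 with TMM, and the members were still 1 and 45. The macrophage markers summed to 24816 to 36148 CPM with LPS, against 17632 to 22335 CPM at rest, in untreated wild-type cells, with 4 of the 8 higher and 1 lower.

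Summed over the 46 genes, untreated wild-type macrophages had 301 ± 47 CPM with LPS, against 4488 ± 285 CPM at rest (SD, n = 3 each), which is 6.71% of the resting level. Ch25h-/- macrophages had 255 ± 13 CPM with LPS, against 4196 ± 321 CPM at rest. The 25HC-pretreated cells had 281 ± 29 CPM with LPS, against 3697 ± 44 CPM at rest. The itraconazole-pretreated cells had 225 ± 40 CPM with LPS, against 4278 ± 335 CPM at rest. The OSW-1-pretreated cells had 180 ± 7.4 CPM with LPS, against 3388 ± 307 CPM at rest. In untreated wild-type cells 40 members were under 10% of their resting mean with LPS, and 10 were under 1%. Per kilobase of exon, Ccnb2 was the highest member in resting untreated wild-type cells at 82.5 CPM per kb, and with LPS it stood at 0.463 CPM per kb. With LPS the highest members per kilobase were Pttg1 at 20.4 and Incenp at 16.7 CPM per kb.

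**Figure D1:**
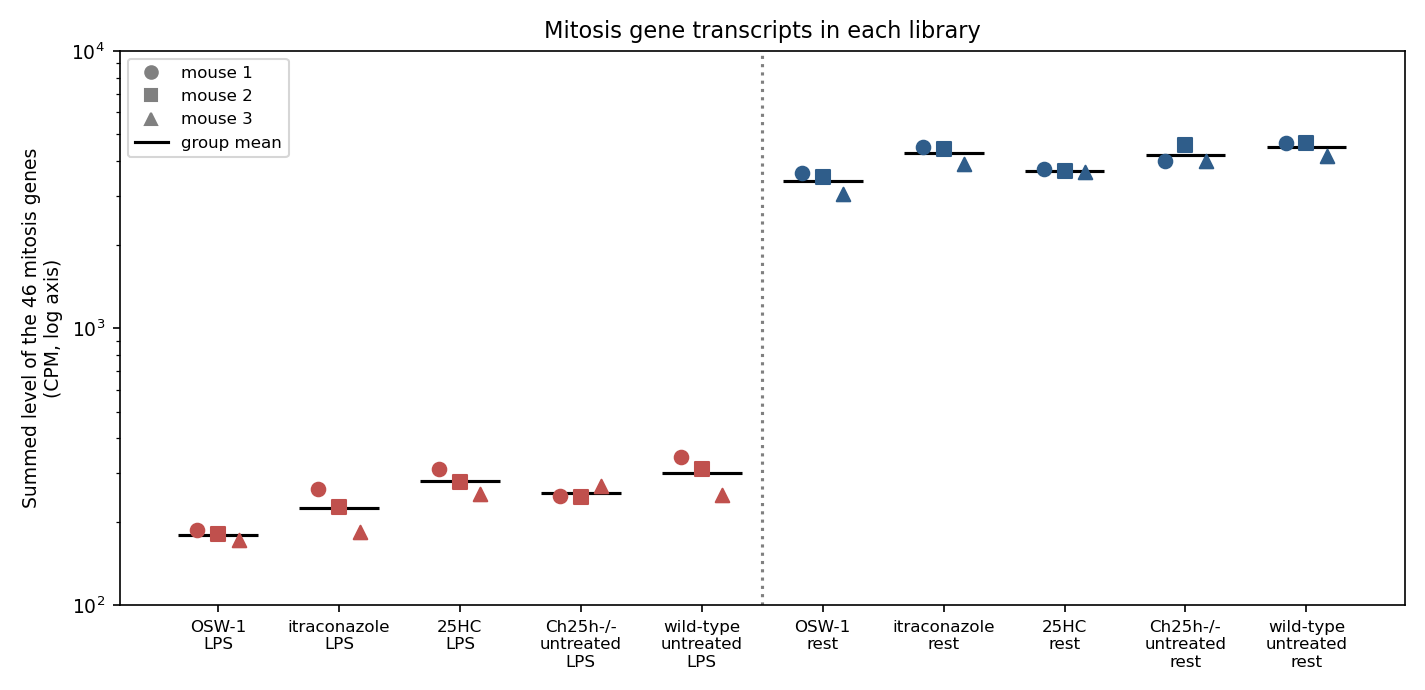
Summed level of the 46 mitosis genes (CPM, log axis) in each of the 30 libraries, by group, with LPS groups on the left and resting groups on the right; symbols mark the mouse and bars the group mean. The 15 LPS libraries reach at most 342 CPM, and the 15 resting libraries have 3038 CPM or more.

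The cyclins and kinases of mitotic entry fell in 8 of 8 genes with LPS in untreated wild-type cells, with a median log2 fold change of -5.99. Ccna2 (cyclin A2, which acts in S phase and at entry into mitosis) had 0.307, 0.420 and 0.851 CPM with LPS, against 190, 198 and 170 CPM at rest. Its log2 fold change was -8.45 ± 0.21 (SE, adjusted p = 1.31e-20), the largest fall among members with over 3 reads in each group. Ccnb2 had 0.799, 0.720 and 0.608 CPM with LPS, against 133, 127 and 119 CPM at rest. Plk1, a kinase with roles at centrosomes, kinetochores and the cleavage site, had 0.307, 0.600 and 0.182 CPM with LPS, against 85.2, 86.0 and 74.6 CPM at rest. These 3 genes were under 1% of their resting mean. Cdk1, the kinase partner of both cyclins, kept more of its transcript, with 15.9, 15.4 and 13.0 CPM with LPS, against 136, 144 and 125 CPM at rest. Its log2 fold change was -3.19 ± 0.12 (SE, adjusted p = 2.45e-17). Aurka, the spindle pole kinase, and the kinase gene Melk fell by 4.23 and 3.62 on the log2 scale. Ccnb1 (cyclin B1) fell by 4.51. Pbk, a mitotic kinase gene, had 6 counts with LPS (3 reads), against 4452 counts at rest, a level 649-fold lower (exact binomial 95% interval 222 to 3148, counting error only).

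Of the genes of the spindle checkpoint and of anaphase, 7 of 8 fell with LPS in untreated wild-type cells and 1 rose. Cdc20, the activator of the anaphase-promoting complex that the checkpoint holds back, had 0.861, 0.420 and 0.912 CPM with LPS, against 98.6, 88.2 and 82.3 CPM at rest. Ube2c, the ubiquitin-conjugating enzyme of that complex, had 1.17, 0.360 and 0.365 CPM with LPS, against 110, 107 and 99.1 CPM at rest. The groups did not overlap in either gene, and both were under 1% of the resting mean. The checkpoint genes Ttk, Bub1b, Bub1 and Mad2l1 had log2 fold changes of -6.22, -4.31, -3.57 and -2.92. Mad2l1 kept the most of these, with 10.9, 10.6 and 8.81 CPM with LPS, against 82.7, 82.7 and 64.4 CPM at rest. Espl1 (separase, the protease that cuts cohesin) fell by 4.41 on the log2 scale.

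Pttg1, which encodes securin, the inhibitor of separase, moved the other way from the remaining members. In untreated wild-type cells it had 42, 45.5 and 34.9 CPM with LPS, against 19.3, 22.8 and 18.7 CPM at rest, a log2 fold change of 1.01 ± 0.11 (SE, adjusted p = 1.88e-08). In Ch25h-/- cells it had 39.2, 39.7 and 40.3 CPM with LPS, against 18.5, 18.9 and 19.3 CPM at rest. After OSW-1 it had 22.6, 22.3 and 26.0 CPM with LPS, against 14.7, 15.2 and 16.6 CPM at rest. The log2 fold change there was 0.61 ± 0.11 (SE, adjusted p = 2.92e-05). In each of these settings every LPS library was above every resting library. The LPS response of Pttg1 after OSW-1 was lower than in untreated cells by a log2 difference of -0.40 ± 0.16 (SE, adjusted p = 0.0336), a comparison chosen after its values were seen. No exon of Pttg1 overlapped another gene in GENCODE vM21.

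All 4 genes of the chromosomal passenger complex, which corrects wrong attachments of microtubules and later acts at the midzone, fell with LPS in untreated wild-type cells. The scaffold Incenp fell least of the 45, with 83.0, 72.6 and 61.6 CPM with LPS, against 178, 176 and 161 CPM at rest. Its log2 fold change was -1.24 ± 0.11 (SE, adjusted p = 6.94e-10). The kinase Aurkb had 8.42, 7.14 and 8.81 CPM with LPS, against 87.7, 84.5 and 83.5 CPM at rest. Birc5 (survivin) had 2.46, 1.92 and 2.25 CPM with LPS, against 119, 108 and 106 CPM at rest. The 4 partners therefore differed in how much transcript was left, at 42.2% of the resting mean for Incenp, 11.3% for Cdca8 (borealin), 9.53% for Aurkb and 1.99% for Birc5.

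The 8 centromere and kinetochore genes also fell, with a median of -5.16. Cenpf (a large kinetochore protein) had 4 counts over 3 LPS libraries (2 reads), against 7296 counts at rest, a level 1595-fold lower (exact binomial 95% interval 441 to 13172). Ska1, a subunit of the complex that couples kinetochores to microtubules, had 2 counts with LPS, against 1400 at rest, 612-fold lower (interval 109 to 24206). Cenpa, the histone that marks the centromere, had the smallest fall of the 8, with 13.6, 7.92 and 5.53 CPM with LPS, against 134, 111 and 140 CPM at rest. The subunits of the Ndc80 complex, the main microtubule receptor of the kinetochore, had log2 fold changes of -6.62 (Spc24), -5.45 (Ndc80), -4.87 (Nuf2) and -4.60 (Spc25). Cenpe, a kinesin that moves chromosomes to the spindle equator, fell by 4.27.

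The 8 mitotic kinesins fell with a median log2 fold change of -6.20. Kif20a, a kinesin of the central spindle, had 1.04, 0.960 and 1.28 CPM with LPS, against 146, 141 and 142 CPM at rest, and its log2 fold change was -7.02 ± 0.14 (SE, adjusted p = 2.8e-22). Kif2c (MCAK), which takes microtubules apart at centromeres, had 0.184, 0.420 and 0.973 CPM with LPS, against 71.0, 64.6 and 58.5 CPM at rest. Kif11 (Eg5), the motor that pushes spindle poles apart, had 1.66, 1.02 and 1.22 CPM with LPS, against 133, 132 and 120 CPM at rest. Kif22, a chromosome-arm motor, had the smallest fall of the 8, at -3.33 on the log2 scale. The log2 fold changes of the others were -6.58 (Kif4), -5.82 (Kif23), -5.41 (Kif15) and -4.90 (Kif20b). Exons of Kif20a overlapped Cdc23 on the opposite strand over 29.3% of their length, and those of Ube2c overlapped Tnnc2 over 22.8%. The strand setting of the counting is not given in the sources used here, so values of both genes are uncertain. Smaller overlaps of this kind touched Kif4 (Pdzd11, 15.1%), Ccna2 (Exosc9, 12.5%), Prc1 (Rccd1, 11.1%) and Plk1 (Gm44985, 7.09%). The least touched Cdca8 (9930104L06Rik, 4.48%), Nusap1 (Oip5, 4.24%), Cdc20 (Elovl1, 2.84%) and Kif22 (Gm31749, 1.96%).

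Spindle assembly and microtubule-binding genes fell in 5 of 5 cases and cytokinesis genes in 3 of 3. Tpx2, which activates Aurka on the spindle, had 22.2, 19.3 and 9.24 CPM with LPS, against 122, 128 and 102 CPM at rest. Prc1, which bundles microtubules of the midzone, had 7.87, 5.16 and 3.59 CPM with LPS, against 157, 155 and 141 CPM at rest. Anln (anillin, a scaffold of the contractile ring) had 1.41, 1.80 and 1.88 CPM with LPS, against 124, 129 and 105 CPM at rest. Every LPS library lay below every resting library in these 3 genes. The spindle genes Nusap1, Ckap2 and Hmmr had log2 fold changes of -5.67, -5.25 and -4.53. Ect2, which activates RhoA at the cleavage furrow, and Racgap1, its partner at the midzone, had -5.16 and -4.40. Top2a, the topoisomerase that untangles sister chromatids, had 11.7, 9.89 and 10.9 CPM with LPS, against 394, 420 and 358 CPM at rest. Mki67 (Ki-67, the coat of mitotic chromosomes and a common proliferation marker) had 32.6, 38.4 and 17.0 CPM with LPS, against 322, 341 and 294 CPM at rest. On this scale Mki67 kept 9.2% of its resting mean and Top2a 2.77%.

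**Figure D2:**
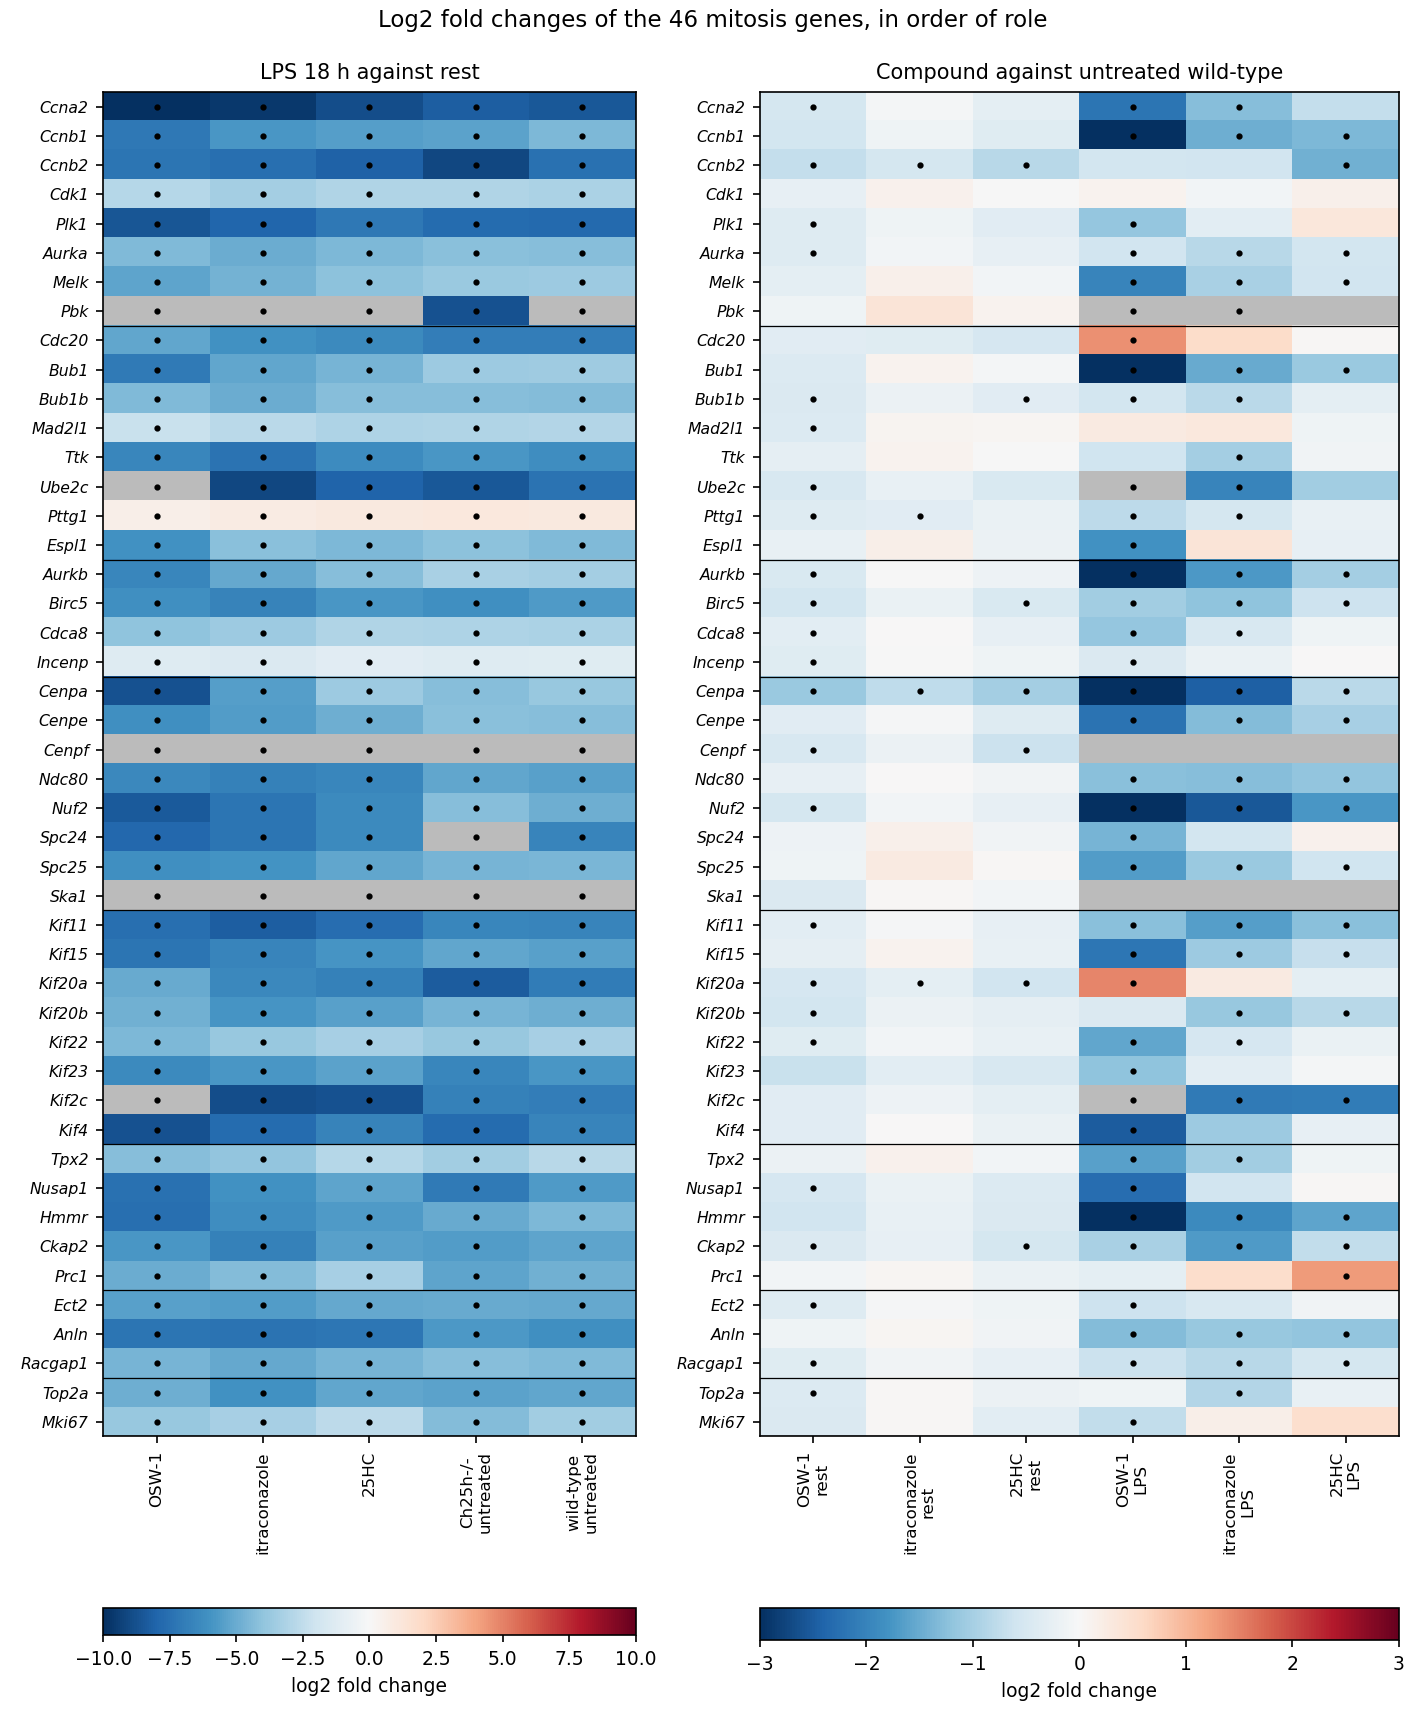
Log2 fold changes of the 46 genes in order of role, LPS against rest in 5 kinds of cells (left) and each compound against untreated wild-type cells at rest and with LPS (right). Dots mark calls at an adjusted p under 0.05, grey cells have 3 or fewer reads in a group, and colours end at 10 and at 3. Pttg1 is the only row above 0 on the left, and Incenp is the palest of the 45 rows below 0.

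Without LPS, OSW-1 lowered 24 of the 46 genes and raised none, against 17.2% of all genes lowered and 20.1% raised. 25HC lowered 7 (Cenpa, Ccnb2, Cenpf, Kif20a, Ckap2, Birc5 and Bub1b) and raised none, against 12.8% of all genes lowered and 15.9% raised, so its share of 7 in 46 is near that of all genes. Itraconazole lowered 4 (Cenpa, Ccnb2, Pttg1 and Kif20a) and raised none, against 12.4% of all genes lowered and 14.4% raised, so the share of 4 in 46 is not above that of all genes. The member medians were -0.38 with OSW-1, -0.03 with itraconazole and -0.24 with 25HC, and the fold change was below 0 in 46, 27 and 43 of the 46 genes. The 3 comparisons share the same untreated libraries. These counts moved with single libraries. The 25HC count was 4 without untreated mouse 1, 25HC mouse 1 or 25HC mouse 2. The itraconazole count was 0 to 2 on leaving out any 1 library. The OSW-1 count was 11 without untreated mouse 1 or mouse 2, 13 without OSW-1 mouse 2 and 10 without OSW-1 mouse 3. Fitted on the compared groups alone the counts were 39, 11 and 27 lower with OSW-1, itraconazole and 25HC. Shares of all genes in that fit are not given here, so these counts show only a dependence on the processing.

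Cenpa, Ccnb2 and Kif20a passed the test in each of the 3 comparisons at rest. The share of all genes that did so is not given here. Cenpa had 61.9, 58.0 and 58.5 CPM with OSW-1, 77.4, 71.9 and 76.5 CPM with itraconazole and 59.6, 56.7 and 72.4 CPM with 25HC, against 134, 111 and 140 CPM in untreated cells. All treated libraries lay below all untreated ones. The log2 fold changes were -1.11 ± 0.24 with OSW-1 (SE, adjusted p = 0.000806), -0.77 ± 0.24 with itraconazole (adjusted p = 0.0195) and -1.03 ± 0.24 with 25HC (adjusted p = 0.00241). Ccnb2 had 78.8, 76.7 and 73.4 CPM with OSW-1, 88.3, 92.6 and 82.7 CPM with itraconazole and 69.6, 70.8 and 74.0 CPM with 25HC, against 133, 127 and 119 CPM in untreated cells. Kif20a had 109, 102 and 88.5 CPM with OSW-1, 124, 118 and 106 CPM with itraconazole and 95.6, 94.9 and 99.2 CPM with 25HC, against 146, 141 and 142 CPM in untreated cells. The groups did not overlap in either gene. Cenpa was the sole member whose level was past 2-fold lower, with OSW-1 and with 25HC.

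The 24 genes lowered by OSW-1 at rest came from every role, including all 4 of the passenger complex, 4 of 8 of mitotic entry (Ccna2, Ccnb2, Plk1 and Aurka) and 4 of 8 of the checkpoint and anaphase group. Aurkb had 61.7, 64.0 and 59.1 CPM with OSW-1, against 87.7, 84.5 and 83.5 CPM in untreated cells. Top2a had 308, 314 and 263 CPM with OSW-1, against 394, 420 and 358 CPM in untreated cells. Both were lower in every OSW-1 library. The smallest called change was in Cdca8, at -0.32 on the log2 scale. Mki67 had 268, 252 and 193 CPM with OSW-1, against 322, 341 and 294 CPM in untreated cells, and it was not called, at -0.42. Cdk1 was not called with any of the compounds at rest, at -0.24 with OSW-1, 0.13 with itraconazole and -0.02 with 25HC.

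Set against each other at rest, at doses that differ, OSW-1 (0.3 µM) was lower than itraconazole (1 µM) in 6 of the 46 genes, against 2.75% of all genes lower and 3.58% higher. The largest differences were in Mad2l1 (-0.50, adjusted p = 0.0384), Ccna2 (-0.46, adjusted p = 0.0341) and Aurkb (-0.45, adjusted p = 0.00646). The count was 2 without itraconazole mouse 1 or 2 or any 1 OSW-1 library, 12 with the mouse as a block and 20 with DESeq2. Between 25HC (5 µM) and itraconazole no member was called by edgeR, against 0.152% of all genes lower and 0.0835% higher. There were 6 members at an unadjusted p under 0.05, 3 called by DESeq2, 2 by voom, and 45 of 46 fold changes below 0 (median -0.20). Between 25HC and OSW-1 none was called by edgeR, against 1.49% of all genes lower and 1.34% higher. Of the members, 4 had an unadjusted p under 0.05, 2 were called higher with 25HC by DESeq2, by voom and with the mouse as a block, and the median was 0.12. A p that misses the threshold does not show that the compounds act alike. Shares of all genes under the other fits named here are not given, so those counts show only a dependence on the processing.

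**Figure D3:**
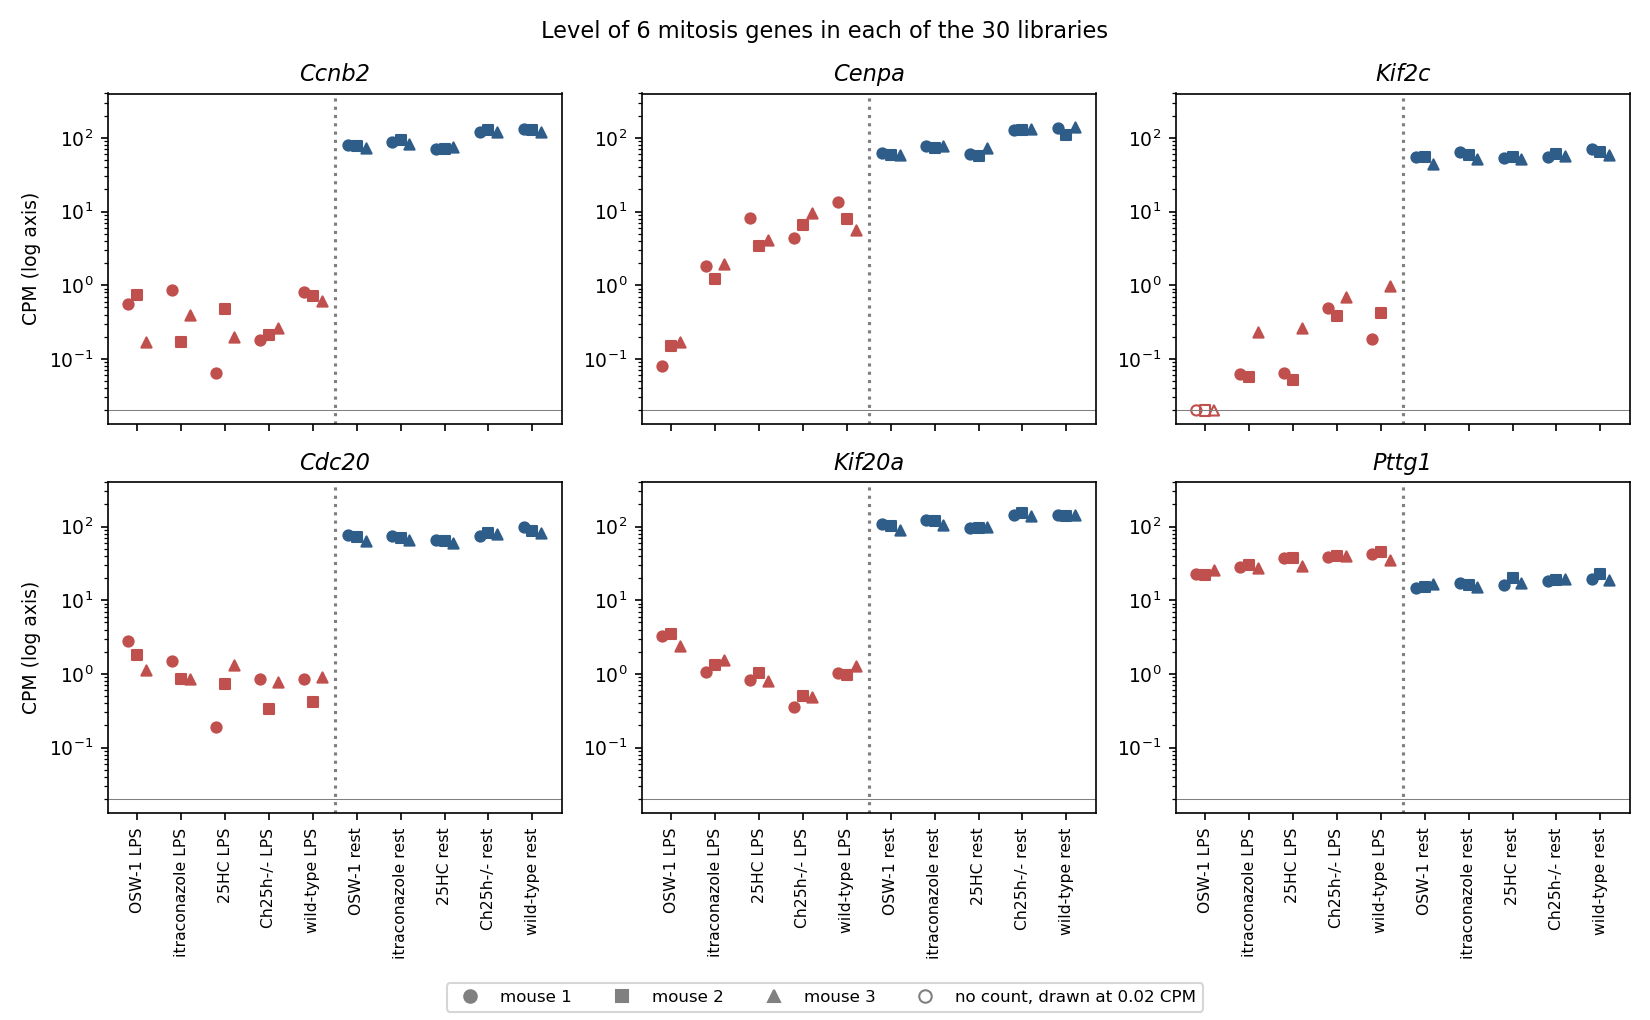
Level of 6 members (CPM, log axis) in each of the 30 libraries, LPS groups on the left of the dotted line and resting groups on the right; symbols mark the mouse and open symbols a count of 0. Cenpa falls to 0.0803 to 0.172 CPM with OSW-1 and LPS, Kif2c to 0, Cdc20 and Kif20a lie higher there than in untreated LPS cells, and Pttg1 is the one gene above its resting level with LPS.

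Among LPS-treated cells, pretreatment went with still lower levels of many members. OSW-1 lowered 35 of the 46 genes and raised 2 (Cdc20 and Kif20a), against 37.1% of all genes lowered and 34.3% raised. With plain library totals the members were 26 and 4, and all genes 3820 lowered and 5700 raised, against 4887 and 4516 with TMM. Itraconazole lowered 29 and raised none (2 with the mouse as a block), against 27.9% lowered and 26.5% raised. 25HC lowered 20 and raised 1 (Prc1), against 21% lowered and 20.8% raised. The median log2 fold change of members with more than 3 reads in at least 1 of the groups, with bounds for those with 3 or fewer in 1 group, was -1.24 with OSW-1, -0.98 with itraconazole and -0.53 with 25HC. The 25HC median over all 46 fitted values was -0.29. In untreated LPS cells 12 members were under 1 CPM, so many of these changes were between very low levels. The OSW-1 and itraconazole counts include Pbk, which had 3 or fewer reads in each group compared, and no fold is given for it. Fitted on the compared groups alone, itraconazole lowered 19 members and 25HC 5. Shares of all genes in that fit, and with the mouse as a block, are not given here.

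With LPS, 18 members were called lower in each of the 3 comparisons, which share the untreated libraries. The share of all genes called lower in all 3 is not given here. Of the 18 members, Aurkb, Cenpa and Bub1 are given as examples. Aurkb had 0.602, 0.599 and 0.757 CPM with OSW-1, 2.48, 2.24 and 2.63 CPM with itraconazole and 4.40, 3.13 and 4.66 CPM with 25HC, against 8.42, 7.14 and 8.81 CPM in untreated LPS cells. No group overlapped the untreated one, and the log2 fold changes were -3.62 ± 0.15 (SE, adjusted p = 8.43e-16), -1.73 ± 0.12 (adjusted p = 6.12e-11) and -1.01 ± 0.11 (adjusted p = 2.79e-07). Cenpa had 0.0803, 0.150 and 0.172 CPM with OSW-1, 1.80, 1.21 and 1.94 CPM with itraconazole and 8.22, 3.39 and 4.06 CPM with 25HC, against 13.6, 7.92 and 5.53 CPM in untreated LPS cells. The 25HC and untreated libraries overlapped. With OSW-1 the log2 fold change of Cenpa was -6.01 ± 0.50 (SE, adjusted p = 9.15e-11), the largest fall among members with over 3 reads in each group. Bub1 had 0.241, 0.561 and 0.275 CPM with OSW-1, 2.05, 1.26 and 2.40 CPM with itraconazole and 3.51, 1.72 and 2.33 CPM with 25HC, against 6.52, 3.42 and 6.26 CPM in untreated LPS cells. Its 25HC and untreated libraries overlapped. Kif2c had no count in the 3 OSW-1 LPS libraries, against 52 counts (26 reads) in untreated LPS cells, a level at least 14.2-fold lower from a floor of 3 reads over the group.

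Cdc20 and Kif20a were raised by OSW-1 with LPS. Cdc20 had 2.81, 1.83 and 1.13 CPM with OSW-1, against 0.861, 0.420 and 0.912 CPM in untreated LPS cells, with a log2 fold change of 1.38 ± 0.37 (SE, adjusted p = 0.00178). Kif20a had 3.29, 3.48 and 2.41 CPM with OSW-1, against 1.04, 0.960 and 1.28 CPM in untreated LPS cells, at 1.48 ± 0.15 (SE, adjusted p = 4.4e-09). The libraries did not overlap in either gene, yet both stayed far under their resting levels. Prc1 had 15, 15.4 and 9.38 CPM with 25HC, against 7.87, 5.16 and 3.59 CPM in untreated LPS cells, at 1.27 ± 0.23 (SE, adjusted p = 0.000112). Cdk1 was not called with any compound, with 16.2, 14.7 and 17.1 CPM with OSW-1, against 15.9, 15.4 and 13.0 CPM in untreated LPS cells. Exons of Prc1 overlapped Rccd1 on the opposite strand over 11.1% of their length. Those of Kif20a overlapped Cdc23 over 29.3%, and those of Cdc20 overlapped Elovl1 over 2.84%.

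OSW-1 with LPS also went with a change in the macrophage markers themselves. Of the 8 macrophage markers 7 fell and 1 rose, and their sum was 9881 to 12640 CPM with OSW-1, against 24816 to 36148 CPM in untreated LPS cells. The mast cell list summed to 3.45 to 5.95 CPM with OSW-1, against 0.246 to 0.780 CPM in untreated LPS cells, nearly all of it Kit, while Cpa3, Mcpt8 and Ms4a2 were at 0. The stromal list summed to 14.6 to 21.6 CPM, against 6.32 to 12.8 CPM, with 4 of 6 genes lower and 1 (Pdgfrb) higher. The B cell list, nearly all of it Cd79b, summed to 0.161 to 0.894 CPM with OSW-1, 0.373 to 1.94 CPM with itraconazole and 0.573 to 2.00 CPM with 25HC, against 5.47 to 9.60 CPM in untreated LPS cells. At rest it summed to 4.27 to 5.82 CPM over the 3 compounds, against 8.65 to 11.6 CPM in untreated cells. The compound and untreated groups did not overlap. In these LPS libraries Igll1 was at 0. Their part in the mitosis gene result was not tested.

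The response to LPS itself differed with pretreatment. The log2 difference of responses was tested as an interaction, and the 3 tests share the untreated libraries. With OSW-1, 23 members had a lower response and 3 a higher one, against 28.3% and 23.4% of all genes (with plain library totals, 5 members were higher, and 2898 of all genes were lower and 4199 higher, against 3732 and 3076 with TMM). With itraconazole the counts were 26 and 1, against 14.2% and 12.2%. With 25HC they were 7 and 1, against 6.95% and 5.34%.

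Few members differed past the threshold between Ch25h-/- and wild-type macrophages. At rest no member was called by edgeR, DESeq2 or voom, 2 had an unadjusted p under 0.05, and 1 of the 13173 genes was called (0.00759%). The median member fold change was -0.13, and 39 of 46 lay below 0. With LPS 2 members were lower in Ch25h-/- cells, against 0.213% of all genes lower and 0.0152% higher. Kif20a had 0.360, 0.507 and 0.483 CPM in Ch25h-/- cells, against 1.04, 0.960 and 1.28 CPM in wild-type cells, a log2 fold change of -1.27 ± 0.22 (SE, adjusted p = 0.0151). Nusap1, a microtubule-binding spindle protein, had 0.720, 0.971 and 0.702 CPM in Ch25h-/- cells, against 3.50, 2.10 and 1.22 CPM in wild-type cells, at -1.50 ± 0.32 (SE, adjusted p = 0.041). Neither pair of groups overlapped. The count of 2 was 0 without wild-type mouse 1 or Ch25h-/- mouse 1, 1 without wild-type mouse 2 or Ch25h-/- mouse 2 or 3, and 12 without wild-type mouse 3. It was 0 with voom and on the compared groups alone, and 4 with DESeq2. Shares of all genes in those fits are not given here. No member differed between genotypes in its response to LPS by edgeR, DESeq2 or voom, with 6 at an unadjusted p under 0.05. By edgeR, 0 of all 13173 genes were called lower and 0 higher in that test. The members therefore do not stand apart from all genes there.

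Other lists of the division machinery were set beside the mitosis genes. In untreated wild-type cells LPS lowered 8 of 8 condensin genes, 25 of 27 further kinetochore genes (2 rose) and 26 of 27 DNA replication genes, with medians of -2.79, -3.29 and -2.77 on the log2 scale. Subunits of the anaphase-promoting complex, which also work outside mitosis, had 8 of 15 lower and 3 higher, against 30.1% of all genes lower and 30.8% higher, with a median of -0.31. Core cohesin and its loaders had 5 of 10 lower, 1 higher and a median of -0.11. Foxm1, a transcription factor of G2 genes, had 1.01 ± 0.48 CPM with LPS, against 91.7 ± 7.8 CPM at rest (SD, n = 3 each). Cdkn1a, which encodes the CDK inhibitor p21, had 1326 ± 325 CPM with LPS, against 431 ± 27 CPM at rest, and it rose by 1.62 on the log2 scale.

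At rest itraconazole raised 10 of the 27 replication genes and lowered none (median 0.46), against 14.4% of all genes raised and none of the mitosis genes. 25HC raised 8 of the 27 and lowered none (median 0.37), against 15.9% of all genes raised and none of the mitosis genes. OSW-1 raised none and lowered 2 (median -0.01). The replication list summed to 2528, 2428 and 2098 CPM with itraconazole and 2335, 2385 and 1806 CPM with 25HC. Untreated cells had 1791, 2024 and 1392 CPM, which overlapped with 25HC but not with itraconazole. Counts for this list under other fits are not given here. Rrm2, a subunit of ribonucleotide reductase, had 142 ± 13 CPM with itraconazole and 128 ± 15 CPM with 25HC, against 94.7 ± 14 CPM in untreated cells (SD, n = 3 each). Ccnd1 (cyclin D1, of G1) was raised by all 3, with 490 ± 96 CPM with OSW-1, 790 ± 149 CPM with itraconazole and 576 ± 298 CPM with 25HC, against 205 ± 112 CPM in untreated cells. The list of G1 cyclins and their kinases, which holds Ccnd1, summed to 1217, 1288 and 593 CPM with 25HC. Untreated cells had 562, 723 and 411 CPM for that list, so these 2 groups overlapped. With OSW-1 and with itraconazole every library lay above every untreated one in that sum. Whether the lists differ was not tested.

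**Figure D4:**
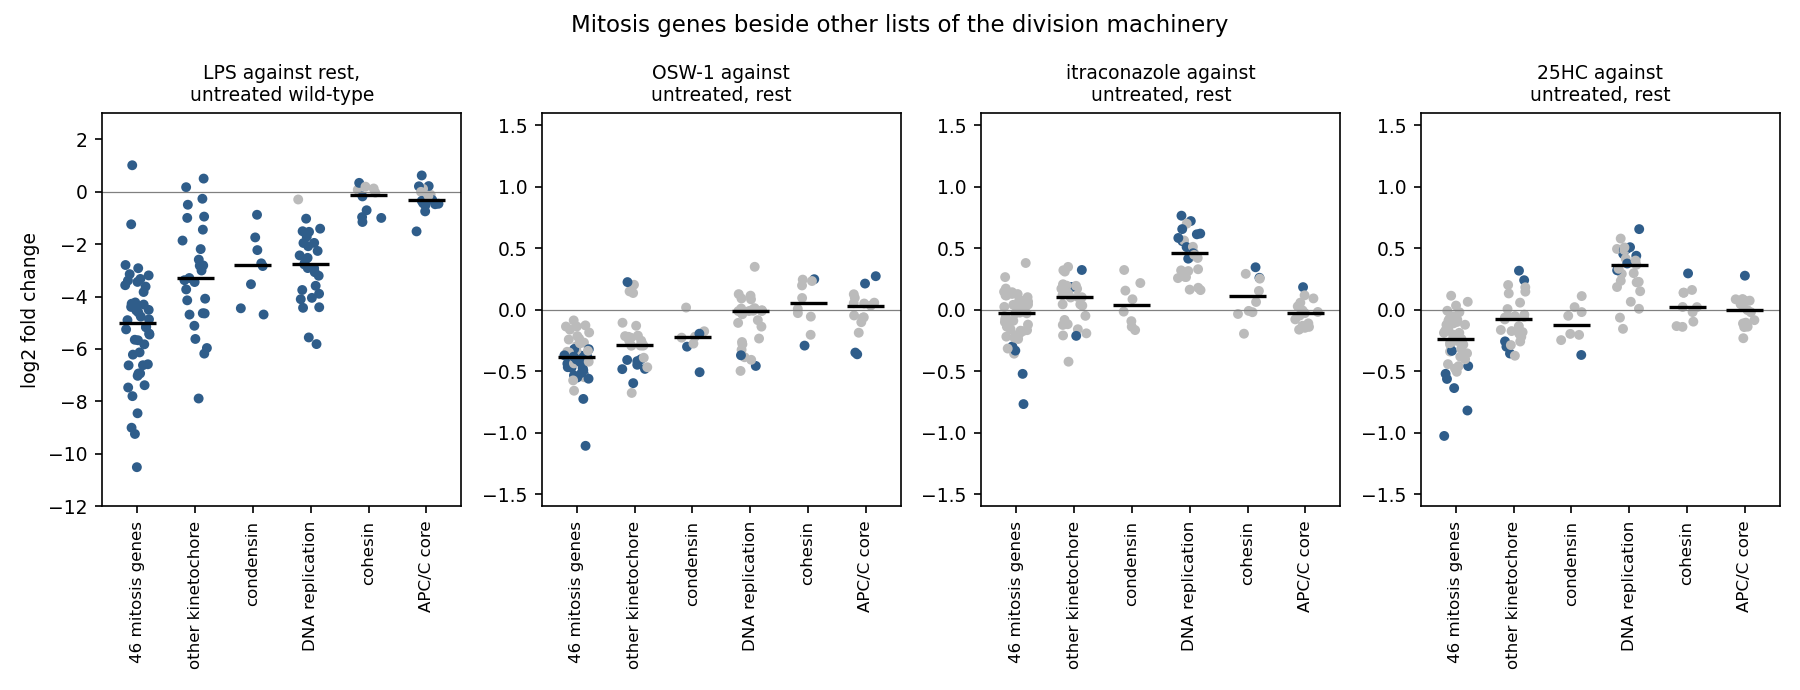
Log2 fold changes of the 46 mitosis genes and of 5 other lists, for LPS against rest in untreated wild-type cells and for each compound against untreated cells at rest. Each dot is a gene, blue where called at an adjusted p under 0.05, and bars are list medians. With LPS the mitosis genes have the lowest median (-5.03), and at rest the replication genes lie above 0 with itraconazole and 25HC.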

How the data were processed

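The data were gene counts deposited by the authors for 30 libraries of polyA RNA (TruSeq stranded, per the labels' protocols). The submitters' processing notes name FastQC 0.11.9, GSNAP, featureCounts from Subread 1.5.2 and edgeR 3.26.8, and give GRCm38/mm10 as the build. The annotation release and strand setting are not given in the sources used here. Groups were taken from genotype, treatment and stimulus in the labels.

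Here counts were kept where filterByExpr (minimum count 10) passed them, normalized with TMM and fitted in 1 edgeR quasi-likelihood model of 10 group means, with 20 comparisons and Benjamini-Hochberg adjustment over 13173 genes. A standard error here is |log2 fold change| / √F. Folds with 3 or fewer reads in a group are given as bounds or with exact binomial 95% intervals, which cover counting error only. Every count was even in 20 libraries, so their reads were halved for those bounds only. The fit was tested on simulated data. Alternatives were other size factors, no filter, halved counts, the mouse as a block (replicate block), voom from limma with a random animal effect, DESeq2, the compared groups alone, each library left out and, chosen after seeing the data, plain library totals.

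Mouse numbers pair libraries of a genotype as the same animal, per the labels. After group means were removed, the best-correlated library was from the same mouse for 22 of 24 wild-type libraries and for 6 of 6 Ch25h-/- ones, with a median correlation of 0.0865 among wild-type pairs. The members, lists and tests were chosen with earlier results of these data known. Any member could be named. For differences of responses and between compounds at most 3 per direction were named, apart from Pttg1 with OSW-1. For other lists at most 3 called genes with the smallest p were named, to which Foxm1, Cdkn1a, Rrm2 and Ccnd1 belong. Kit, Pdgfrb and Cd79b, and the response difference of Pttg1, were named after their values were seen. Tests ran in R 4.3.3 (DESeq2 1.42.0, limma 3.58.1, edgeR 4.0.16), and figures in matplotlib 3.10.9 under Python 3.11.15 with tables read by pandas 2.3.3.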

Additional observations from a re-analysis of the deposited data

Results flagged for a closer look

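Differences of LPS responses between pretreated and untreated wild-type cells passed a test of the difference itself (an interaction term, adjusted over all genes), in 26 mitosis genes with OSW-1, 27 with itraconazole and 8 with 25HC. Of all genes, 28.3% had a lower and 23.4% a higher response with OSW-1. The shares were 14.2% and 12.2% with itraconazole, and 6.95% and 5.34% with 25HC. With OSW-1, Cenpa differed by -4.90 on the log2 scale, and Kif2c (adjusted p = 0.00014) and Ube2c (adjusted p = 0.000248) also differed, with 3 or fewer reads in a group, while Kif20a (1.99), Cdc20 (1.71) and Mad2l1 (0.68) had less negative responses. With itraconazole, Nuf2 (-2.46) and Kif2c (-1.97) had more negative responses, Pbk passed at an adjusted p of 0.0432 with 3 or fewer reads in a group, and Kif20a (0.56) had a less negative one. With 25HC, Kif2c (-1.81), Nuf2 (-1.51) and Anln (-1.08) had more negative responses and Prc1 (1.47) a less negative one. Fold changes of several of these rest on levels under 1 CPM with LPS.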

How the results depend on the processing

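In the 5 LPS comparisons 45 members fell and 1 rose under all alternatives run. In the LPS, compound and genotype comparisons no called member changed sign under any alternative. For response differences and compound against compound, only called members with the largest differences were checked, at most 3 per direction. None of those changed sign. With plain library totals, chosen after seeing the data, the median of all genes moved to between -0.18 and -0.36 in the LPS comparisons, to 0.19 for OSW-1 with LPS and to 0.14 for its response difference. Members lowered at rest: 25HC (main count 7) 11 with halved counts, 13 with DESeq2, 25 with voom, 27 on the compared groups alone and 4 to 7 on leaving out 1 library; itraconazole (4) 7 with voom, 11 alone and 0 to 2 left out; OSW-1 (24) 13 with plain totals, 38 with voom, 39 alone and 10 to 22 left out. Itraconazole raised 1 by DESeq2, 2 by voom, 1 alone and 0 to 1 left out. With LPS, 25HC lowered 5 alone (main 20) and raised 1 to 2 left out. Itraconazole lowered 19 alone (29) and raised 2 with plain totals, 2 with the replicate block (mouse as a block), 1 by DESeq2, 1 by voom and 0 to 3 left out. OSW-1 raised 4 with plain totals. Ch25h-/- with LPS lowered 4 by DESeq2, 0 by voom, 0 alone and 0 to 12 left out. Response differences: 25HC lower 4 by voom and 3 to 7 left out, higher 1 to 2 left out; itraconazole higher 0 with no filter, with halved counts, by DESeq2, by voom and alone, 0 to 1 left out; OSW-1 higher 5 with plain totals and 3 to 5 left out; Ch25h-/- lower 0 to 4 left out. 25HC against itraconazole lower 3, 2 and 1 by DESeq2, voom and alone. 25HC against OSW-1 higher 2 with the replicate block, DESeq2, voom and alone. OSW-1 against itraconazole lower 12 with the replicate block, 20, 32 and 29 by DESeq2, voom and alone, 2 to 7 left out. The replicate block moved no other count by over 1.5 times. Shares of all genes called under each alternative are not given here. These counts therefore show only how far calls of members depend on the processing. The causes were not tested.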
